A study of Mus musculus with 1600 samples.

Results

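The genes described here are 3 members of the Ly6 family (Ly6c1, Ly6a and Ly6e) and 5 members of the Gimap family (Gimap1, Gimap4, Gimap5, Gimap6 and Gimap8), 8 of the 45792 genes counted in single wells of mouse glomerular cells. They were chosen by name with their levels by cell type in these same counts already known, so their levels across cell types are given as a description, without a test. Diabetes had been induced in Nos3-/- mice on a C57BL/6 background, which lack endothelial nitric oxide synthase, when they were 8 weeks old, by 5 daily doses of 50 μg streptozotocin per g. Control Nos3-/- mice received citrate vehicle, so mice with a working Nos3 gene were not among the groups compared. Dissociated glomeruli of 3 mice, 10 weeks old, were pooled for each condition in each of 2 experiments and loaded on Fluidigm C1 800-cell HT plates, which image each well before its RNA is copied. A pool was taken as the replicate, giving Diabetes 1 and Diabetes 2 against Control 1 and Control 2, where the number is the experiment.

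Ly6 proteins are small, disulfide-rich proteins held in the outer membrane leaflet by a glycolipid anchor, and several serve as surface antigens that tell blood cell types apart. Gimap proteins are GTPases of intracellular membranes, best known from lymphocytes, whose survival depends on some of them. Transcripts of both families are also found in endothelium, the cell layer that lines vessels and, in the glomerulus, forms the fenestrated inner face of the filter.

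All 8 genes lie in a pair of family clusters in the mouse genome (GRCm38). The Ly6 members span 93.8 kb of chromosome 15, with Ly6e at 74955051 to 74959905 on the plus strand, Ly6a at 74994877 to 74998031 and Ly6c1 at 75044018 to 75048830, both on the minus strand. The Gimap members span 107 kb of chromosome 6, with Gimap8 at 48647234 to 48660875, Gimap4 at 48684549 to 48692060, Gimap1 at 48739054 to 48743795 and Gimap5 at 48746197 to 48754210 on the plus strand. Gimap6 lies among them at 48701582 to 48708225 on the minus strand.

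Promoter windows of 250 bases upstream of the annotated start were taken from RefSeq (GRCm38.p6) for the 6 members with an entry (Ly6c1 and the 5 Gimap genes), and both strands were searched for 7 motifs of factors that act in endothelium or in interferon and inflammatory signalling. The windows of Ly6c1, Gimap5 and Gimap6 are printed as examples that hold a match: chr15:75048838-75049087 on the minus strand, chr6:48745947-48746196 on the plus strand and chr6:48708245-48708494 on the minus strand. Capitals mark the matched letters, each sequence running 5′ to 3′ toward its gene.
Ly6c1: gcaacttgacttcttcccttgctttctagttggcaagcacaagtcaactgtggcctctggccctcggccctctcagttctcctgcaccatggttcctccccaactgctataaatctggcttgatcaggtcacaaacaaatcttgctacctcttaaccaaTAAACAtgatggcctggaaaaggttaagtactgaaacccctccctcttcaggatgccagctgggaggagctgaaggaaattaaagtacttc
Gimap5: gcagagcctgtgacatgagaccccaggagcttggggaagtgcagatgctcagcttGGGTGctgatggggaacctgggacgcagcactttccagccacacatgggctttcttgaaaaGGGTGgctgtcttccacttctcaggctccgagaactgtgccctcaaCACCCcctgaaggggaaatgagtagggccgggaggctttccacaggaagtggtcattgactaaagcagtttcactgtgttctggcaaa
Gimap6: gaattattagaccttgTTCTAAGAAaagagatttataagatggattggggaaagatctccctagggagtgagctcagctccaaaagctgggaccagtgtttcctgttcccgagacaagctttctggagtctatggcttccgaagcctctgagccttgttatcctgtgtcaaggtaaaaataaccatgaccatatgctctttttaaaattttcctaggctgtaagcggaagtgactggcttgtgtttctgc

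The forkhead motif TGTTTA matched 1 of the 6 member promoters, that of Ly6c1, where it reads TAAACA on the printed strand, against 12.03% of all 32851 promoters. Gimap6 held the only match to the gamma-activated sequence motif TTCNNNGAA, found in 7.02% of all promoters. The KLF or SP motif CACCC matched 3 of 6 (Gimap4, Gimap5 and Gimap8), with 3 matches in the Gimap5 window, a share near the 52.0% of all promoters. With 1 Ly6 window against 5 Gimap windows, the families were not compared. No member window held the ETS motif in the form CCGGAA (12.03% of promoters) or the GATA motif AGATAA (9.99%). None held the interferon-stimulated response element (2.98%) or the NF-kappaB motif (1.41%) either. The shorter run GGAA, which occurs in the printed windows, was not searched, so other forms of the ETS motif were not assessed. No motif overlapped another in the 3 windows printed, and a match is a run of letters, not a measured binding site.

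Of 1600 wells, 833 were imaged with 1 cell, and 639 of these passed the filters, at least 500 genes and at most 30% mitochondrial reads. Diabetes 1 and Diabetes 2 kept 128 and 188 wells, against 120 in Control 1 and 203 in Control 2. Experiment 1 was shallower, with a median of 43577 reads per kept well in Diabetes 1 and 32222 in Control 1, while Diabetes 2 had 176715 and Control 2 had 219072. Clusters built without any Ly6 or Gimap gene were named from marker lists, and 3 of the 9 clusters, holding 300 wells, carried all 14 endothelial markers at detectable levels and were called endothelial-like. These were 73 and 100 wells in Diabetes 1 and 2 and 48 and 79 wells in Control 1 and 2. In the endothelial-like wells Xist, the transcript of the silenced X chromosome in females, stood at 1.07 and 0.0959 reads per 1000000 reads of the pool (CPM) in Diabetes 1 and 2 and at 435 and 244 CPM in Control 1 and 2. The sum of 4 Y-linked genes stood at 175 and 174 CPM in Diabetes 1 and 2 and at 0.192 and 0.773 CPM in Control 1 and 2. The design names sex-matched littermates, but in these counts the sex of the cells moved with the treatment, so neither can be told apart from the other in any difference below. Nos3 itself had 103 and 83.6 CPM in Diabetes 1 and 2 and 72.9 and 101 CPM in Control 1 and 2, reads that do not check the deletion, since where on the gene they fall was not given.

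Among classes with at least 5 wells in a pool, endothelial-like wells carried the members at the highest level in 4 of 4 pools for Ly6c1, Ly6a, Gimap1, Gimap4, Gimap5 and Gimap6. Ly6e was highest there in 3 of 4 pools and Gimap8 in 2 of 4. Classes of fewer wells are not in this order: 3 smooth muscle-like wells of Diabetes 2 had 158% of the endothelial-like level of Gimap1 there, and 2 unnamed wells of Control 1 had 115% of that of Ly6e. These levels were known when the genes were chosen. Where endothelial-like wells were highest, the next class was the tubular-like or the unnamed wells, and the lowest class was always the mesangial-like, podocyte-like, immune-like or smooth muscle-like wells.

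Ly6c1 encodes a Ly6 surface antigen. In endothelial-like wells it had 5570 and 6967 CPM in Diabetes 1 and 2, against 4324 and 6043 CPM in Control 1 and 2. In mesangial-like wells, the contractile support cells of the capillary tuft, its level was 1.24% to 19.1% of the endothelial-like level in the same pool, and the top of that range was Control 1, where 1 well held 57.1% of the Ly6c1 reads. Ly6a, known as Sca-1 and used to isolate blood stem cells, had 3115 and 4749 CPM in Diabetes 1 and 2 and 1143 and 4564 CPM in Control 1 and 2, so 3 pools lay together and Control 1 lay far below them. Ly6e, the third family member, is induced by interferon and acts in mice as the placental receptor for the fusion protein syncytin-A. It had 3204 and 4265 CPM in Diabetes 1 and 2 and 2334 and 4518 CPM in Control 1 and 2, again lowest in Control 1, and the conditions overlapped.

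Among the Gimap genes, Gimap4, which acts in T cell death, had 1519 and 1887 CPM in Diabetes 1 and 2 and 1681 and 2264 CPM in Control 1 and 2. Gimap6, which has been tied to autophagy, had 931 and 881 CPM in Diabetes 1 and 2, against 975 and 1062 CPM in Control 1 and 2. Both Diabetes pools of Gimap6 lay below both Control pools, while the conditions overlapped for Gimap4.

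Gimap5, needed for the survival of T cells in mice and rats, had 733 and 724 CPM in Diabetes 1 and 2 and 571 and 994 CPM in Control 1 and 2. The Control values bracketed the Diabetes values, and 1 well held 40.9% of all Gimap5 reads in Control 1. Gimap8, a larger protein with repeated GTPase domains, had 277 and 198 CPM in Diabetes 1 and 2 and 278 and 212 CPM in Control 1 and 2, a split by experiment rather than by condition. Gimap1, needed by mature B and T cells, was the sparsest member in CPM, with 124 and 145 CPM in Diabetes 1 and 2 and 84.8 and 178 CPM in Control 1 and 2.

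**Figure D1:**
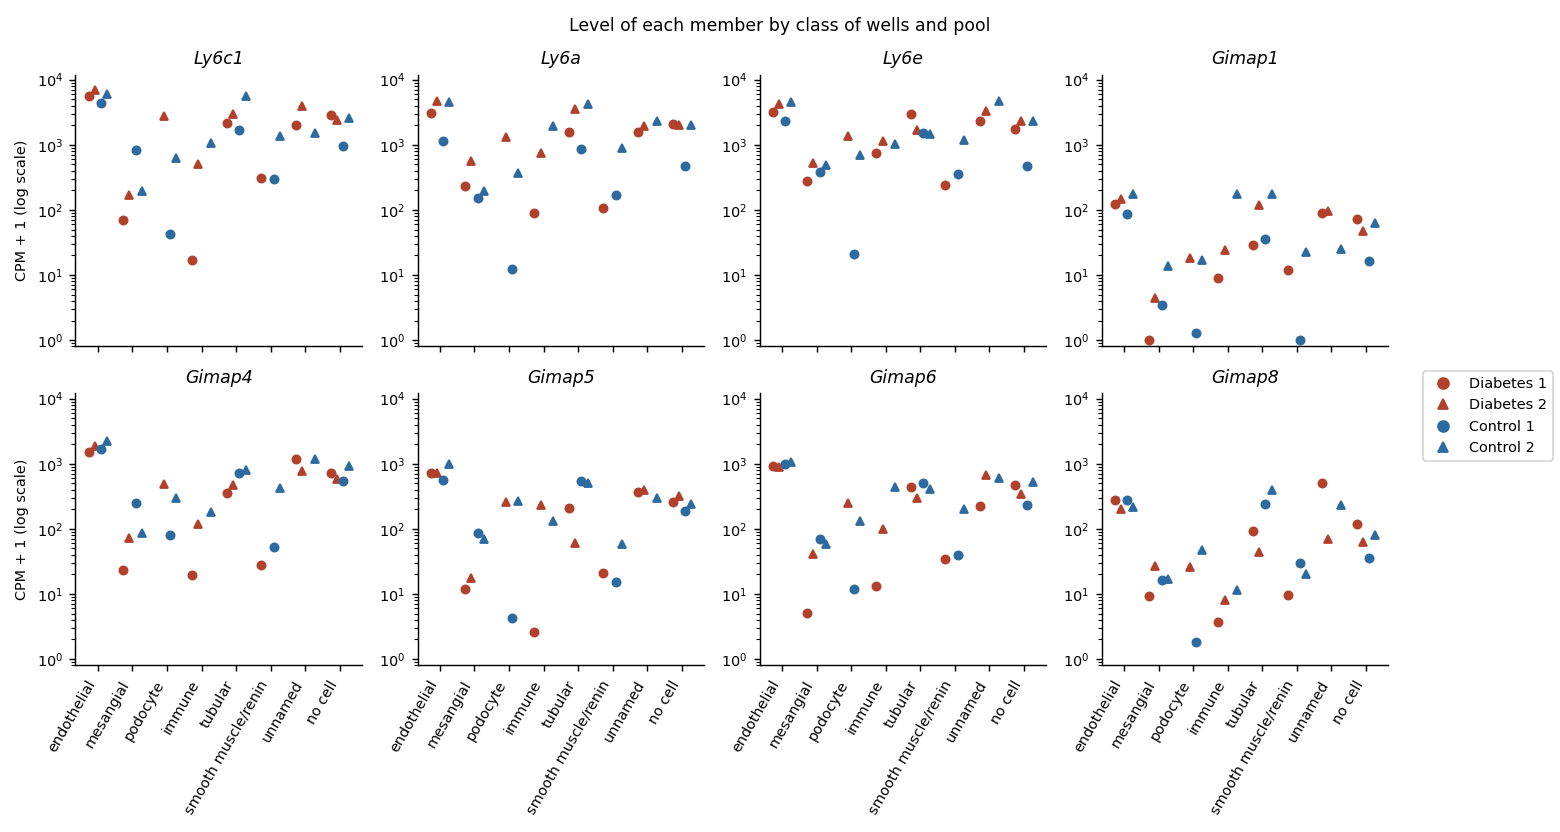
Level of each member as CPM + 1 on a log axis, by class of wells, with circles for experiment 1, triangles for experiment 2, red for Diabetes and blue for Control; a pool with under 5 wells of a class is not drawn, and "no cell" wells were imaged empty. Ly6c1 stands between 4324 and 6967 CPM in the endothelial-like wells of the 4 pools, and wells imaged empty carry between 955 and 2908 CPM of it.

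Per kilobase of exon the order of the genes in endothelial-like wells was Ly6c1 or Ly6a first, Ly6e and Gimap4 next, then Gimap6, Gimap5, and last Gimap8 and Gimap1. In CPM per kilobase, Ly6c1 had 3322 and 4154 in Diabetes 1 and 2 and 2578 and 3603 in Control 1 and 2, and Ly6a had 2585 and 3941 in Diabetes 1 and 2 and 948 and 3787 in Control 1 and 2. Ly6e had 847 and 1127 in Diabetes 1 and 2 and 617 and 1194 in Control 1 and 2, a range that overlapped that of Gimap4, 827 and 1027 in Diabetes 1 and 2 and 915 and 1232 in Control 1 and 2. Gimap6 (252 to 304 over the 4 pools) lay above Gimap5 (138 to 240), and both lay above Gimap8 (53.4 to 75.2) and Gimap1 (27.6 to 57.8), whose ranges overlapped. Where along a transcript the reads fall was not given, and for reads drawn from 1 end a level per kilobase understates a long gene.

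Outside the endothelial-like wells, the immune-like wells kept 22.4% to 26.6% of the endothelial-like level of Ly6e in the 3 pools with at least 5 of them, against 0.290% to 17.9% for Ly6c1 and 2.87% to 42.7% for Ly6a. Ly6e had 748 and 1133 CPM there in Diabetes 1 and 2 and 60.7 and 1013 CPM in Control 1 and 2, where Control 1 rests on 4 wells and Control 2 on 5. In Diabetes 1, whose 23 immune-like wells summed to 231 CPM over the 14 endothelial markers against 24267 CPM in its endothelial-like wells, Ly6c1 had 16.2 CPM and Ly6a 89.3 CPM. After each well was thinned to 10000 reads, Ly6e had reads in 90.5% of 21 immune-like wells of Diabetes 1 and Ly6c1 in 14.3%, with 2 shallower wells left out. Set against the endothelial marker reads of the same wells, Ly6e in the immune-like wells of Diabetes 1 stood 24.6 times as high as in endothelial-like wells and in Diabetes 2 2.80 times as high, against 1.197 times in Control 1, on its 4 wells, and 0.684 times in Control 2. For Ly6c1 this ratio was 0.306 and 0.763 in Diabetes 1 and 2 and 2.503 and 0.547 in Control 1 and 2.

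The 5 Gimap members were low in immune-like wells of Diabetes 1, between 1.59 CPM for Gimap5 and 18.3 CPM for Gimap4, and higher in Diabetes 2, between 7.04 CPM for Gimap8 and 230 CPM for Gimap5. In the 5 immune-like wells of Control 2 they had between 10.4 CPM for Gimap8 and 433 CPM for Gimap6. Gimap1 there had 175 CPM, 98.4% of the endothelial-like level, and those wells carried 7526 CPM of endothelial markers. The 4 wells of Control 1 had at most 37.9 CPM, for Gimap6. In mesangial-like wells the level of the Gimap members was between 0.0% and 15.0% of the endothelial-like level. In podocyte-like wells, the filtering epithelial cells, Ly6c1 had 2741 CPM in Diabetes 2 and 41.7 and 633 CPM in Control 1 and 2, and Diabetes 1 held only 1 such well. The 14 endothelial markers followed the same order in these podocyte-like wells, with 5812 CPM in Diabetes 2 and 355 and 3230 CPM in Control 1 and 2.

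Other classes came close to the endothelial-like wells. Tubular-like wells of Control 2 had 5541 CPM of Ly6c1, 4204 CPM of Ly6a and 177 CPM of Gimap1, against 6043, 4564 and 178 CPM in its endothelial-like wells, and they carried 14808 CPM of endothelial markers. Over the pools the tubular-like wells had 8901 and 5403 CPM of endothelial markers in Diabetes 1 and 2 and 10144 and 14808 CPM in Control 1 and 2. A cluster left unnamed, with Mki67 and Top2a of dividing cells among its leading genes, had 4780 CPM of Ly6e in Control 2, above the 4518 CPM of the endothelial-like wells, and 514 CPM of Gimap8 in Diabetes 1, above their 277 CPM. It carried 7641 and 10528 CPM of endothelial markers in Diabetes 1 and 2 and 11521 and 12637 CPM in Control 1 and 2. How far endothelial RNA or a second cell in these wells sets the members' level there was not tested.

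Wells imaged with no cell also carried the members. Ly6c1 had 2908 and 2380 CPM in empty wells of Diabetes 1 and 2 and 955 and 2564 CPM in those of Control 1 and 2, and Ly6a had 2062 and 2027 CPM in Diabetes 1 and 2 and 465 and 1983 CPM in Control 1 and 2. Relative to the endothelial marker reads of the same wells, the sum of the 8 members was between 1.04 and 1.13 times its value in endothelial-like wells in every pool. Median depth was 2397 and 32994 reads per empty well in Diabetes 1 and 2 and 2212 and 33610 reads in Control 1 and 2, far below that of endothelial-like wells.

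In single endothelial-like wells Ly6c1 and Ly6e had reads in nearly every well of every pool, while Ly6a did so in 3 of the 4 pools. At 10000 reads per well, Ly6c1 was seen in 95.5% and 100% of wells in Diabetes 1 and 2 and in 100% and 100% in Control 1 and 2. Ly6e was seen in 100% and 100% in Diabetes 1 and 2 and in 97.6% and 100% in Control 1 and 2. These shares rest on 66 and 100 wells in Diabetes 1 and 2 and 41 and 79 wells in Control 1 and 2, after 7 shallower wells in Diabetes 1 and 7 in Control 1 were left out.

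Ly6a was seen in 97.0% and 98.0% of thinned wells in Diabetes 1 and 2 and in 65.9% and 96.2% in Control 1 and 2, so that in Control 1 it was seen in fewer wells than Gimap4 or Gimap6. Before thinning the shares were 97.3% and 100% in Diabetes 1 and 2 and 81.2% and 100% in Control 1 and 2. The exact 95% interval for Control 1, 67.4% to 91.1%, covers the sampling of wells within the pool only. The median well had 2378 and 3513 CPM of Ly6a in Diabetes 1 and 2 and 949 and 3191 CPM in Control 1 and 2, so Control 1 was low both in level and in the share of wells with any read. In mesangial-like wells, which had the gene at far lower level, the thinned share was 57.9% in Diabetes 2 and 26.9% and 53.0% in Control 1 and 2.

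Gimap4 and Gimap6 were the most regular of the Gimap genes, with Gimap4 in 90.9% and 94.0% of thinned wells in Diabetes 1 and 2 and in 90.2% and 91.1% in Control 1 and 2. Gimap6 was in 83.3% and 90% in Diabetes 1 and 2 and in 80.5% and 84.8% in Control 1 and 2. Gimap5 and Gimap8 were seen in 43.9% to 74.0% of wells over the 4 pools, and Gimap1 in 21.95% to 35%. A typical endothelial-like well held reads of most members at once, the median being 7 and 6 of the 8 genes in Diabetes 1 and 2 and 5 and 6 in Control 1 and 2.

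**Figure D2:**
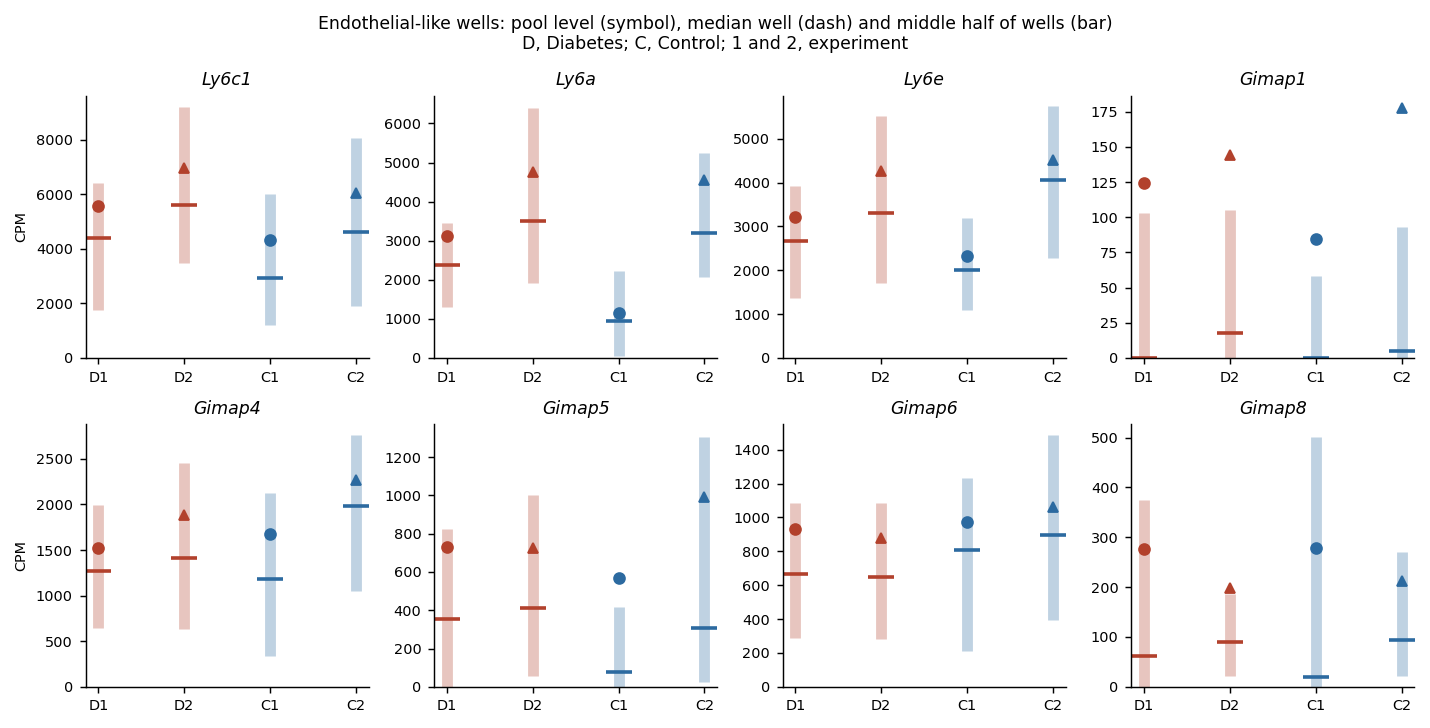
CPM of each member in endothelial-like wells of each pool, where the symbol is the level of all wells summed, the dash the median well and the pale bar the interquartile range of wells; D stands for Diabetes, C for Control and the number for the experiment. Ly6a in Control 1 lies at 1143 CPM, below the 3115 to 4749 CPM of the other pools, while the symbols of Gimap1 lie above the median well in all 4 pools, and that well is at 0 in Diabetes 1 and Control 1.

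The question that the design puts to these genes is whether diabetes shifts them within the endothelium. Summed over the 3 Ly6 members, endothelial-like wells had 11890 and 15981 CPM in Diabetes 1 and 2 and 7801 and 15124 CPM in Control 1 and 2. Over the 5 Gimap members the sums were 3585 and 3834 CPM in Diabetes 1 and 2 and 3590 and 4710 CPM in Control 1 and 2. The Ly6 sum was higher in Diabetes in experiment 1 and close to Control in experiment 2, and the Gimap sum was close to Control in experiment 1 and lower in experiment 2.

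No member passed the test of Diabetes against Control. All 8 passed the filter on low counts, and edgeR's quasi-likelihood test with the experiment as a block called 0 of 8 at an adjusted p under 0.05, against 0.0% of the 12502 genes tested. At an unadjusted p under 0.05 it also had 0 of 8 members and 548 of all genes. DESeq2 called 0 of 8 members and 89 of 11341 genes at an adjusted p under 0.05. Its unadjusted p was 0.0375 for Ly6a, and 1140 genes lay under 0.05 there. In edgeR the unadjusted p of Ly6a was 0.0235 with no filter on low counts (721 of 19777 genes under 0.05). In thinned wells it was 0.0417 (356 of 8199 genes). Nothing in a share of 0.0% distinguishes the members from other genes, and a missed threshold with 2 pools per condition does not show that levels were equal.

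The ratio of the conditions was first taken within each experiment. In experiment 1 the log2 ratio of Diabetes over Control was 0.37 for Ly6c1, 1.45 for Ly6a and 0.46 for Ly6e, and in experiment 2 it was 0.21, 0.06 and −0.08 for the same genes. Over all 8 members 5 ratios were positive in experiment 1, with a median of 0.36, and 2 in experiment 2, with a median of −0.18, beside medians of 0.08 and −0.01 over all genes tested. The fitted log2 fold change was 0.30 for Ly6c1 (SE 0.20, p = 0.180, edgeR), 0.77 for Ly6a (SE 0.35, p = 0.0646) and 0.20 for Ly6e (SE 0.24, p = 0.424), each with an adjusted p of 1.00.

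The value for Ly6a changed with the pool left out. Without Control 2 its log2 fold change was 1.92 (edgeR adjusted p = 0.0970), without Control 1 it was −0.30, and over all 18 alternatives the adjusted p ran between 0.0970 and 1.00. Leaving out Diabetes 2 put Ly6c1 at −0.0037, Ly6a at −0.02 and Ly6e at −0.22, and leaving out Control 1 put Ly6c1 at −0.04 and Ly6e at −0.36, all below 0. These fits of 3 pools carry no experiment term, because with it no degrees of freedom would be left. They therefore set pools of different experiments against each other.

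For the Gimap genes the fitted log2 fold changes were between −0.19 for Gimap4 (SE 0.23, p = 0.441, edgeR) and 0.13 for Gimap1 (SE 0.44, p = 0.767), with adjusted p of 1.00 for all 5. Gimap5 had −0.04 (SE 0.31), Gimap6 −0.16 (SE 0.26) and Gimap8 −0.04 (SE 0.34). Gimap4 and Gimap6 had negative ratios in both experiments (−0.15 and −0.26 for Gimap4, −0.07 and −0.27 for Gimap6), whereas Gimap1 (0.55 and −0.30) and Gimap5 (0.36 and −0.46) changed sign between experiments. The spread between experiments was thus larger than the fitted difference for these last genes.

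Transcripts of other cell types differed between the conditions in the same endothelial-like wells, the immune markers in both experiments and the others below mainly in experiment 1. The 14 immune markers summed to 445 and 304 CPM in Diabetes 1 and 2 and to 105 and 57.7 CPM in Control 1 and 2. All 13 that could be tested had a positive fold change, with a median log2 of 4.51. Of these edgeR called 0, though 5 had an unadjusted p under 0.05. The mesangial markers summed to 125 and 490 CPM in Diabetes 1 and 2 and to 746 and 375 CPM in Control 1 and 2. All 12 tested had a negative fitted fold change, at a median of −2.05. Within experiment 1 their median log2 ratio was −3.22, with 1 positive. Within experiment 2 it was −0.17, with 5 positive. The 4 haemoglobin genes summed to 13118 and 30.5 CPM in Diabetes 1 and 2 and to 0.0 and 26.2 CPM in Control 1 and 2. The part of these transcripts in the members' differences was not tested, but endothelial markers themselves stood at 24267 and 18803 CPM in Diabetes 1 and 2 and at 20426 and 22967 CPM in Control 1 and 2.

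The wells of the class were not alike. Cluster 7 had 12 and 27 wells in Diabetes 1 and 2 and 5 and 25 in Control 1 and 2. Fabp4, a fatty acid binding protein of capillary endothelium, was among its leading genes but did not set it apart from cluster 1. Fabp4 was higher in cluster 7 in Diabetes 2 (2688 against 2024 CPM) and Control 1 (3975 against 469 CPM). It was lower there in Diabetes 1 (1426 against 2126 CPM) and Control 2 (328 against 353 CPM). Cluster 5, led by Kdr, Plat and Sgk1, had 42 and 29 wells in Diabetes 1 and 2 and 25 and 14 in Control 1 and 2. Cluster 1 held the remaining 121 of the 300 wells. Over all pools the median depth was 240230 reads per well in cluster 7, 152156 in cluster 1 and 68643 in cluster 5.

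Ly6c1 was highest in cluster 7, with 8597 and 8088 CPM in Diabetes 1 and 2 and 7325 and 6892 CPM in Control 1 and 2, and lowest in cluster 5, with 3830 and 4426 CPM in Diabetes 1 and 2 and 3641 and 3334 CPM in Control 1 and 2. These ranges did not overlap. Ly6e had 4843 and 5247 CPM in cluster 7 of Diabetes 1 and 2 and 3430 and 5030 CPM in that of Control 1 and 2, against 2528 and 3299 CPM in cluster 5 of Diabetes 1 and 2 and 2078 and 2999 CPM in that of Control 1 and 2. Ly6a was also higher in cluster 7 than in cluster 5 in every pool, for example 4355 CPM in cluster 7 and 2663 CPM in cluster 5 of Diabetes 1.

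The Gimap members kept no such order, and Gimap8 had 150 and 210 CPM in cluster 7 of Diabetes 1 and 2 and 474 and 177 CPM in that of Control 1 and 2, against 337 and 188 CPM in cluster 5 of Diabetes 1 and 2 and 384 and 614 CPM in that of Control 1 and 2. Clusters were formed on the same counts, though not on Ly6 or Gimap genes, so these levels are a description. For Ly6a, Control 1 was the lowest pool in all 3 clusters, as in the class as a whole.

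**Figure D3:**
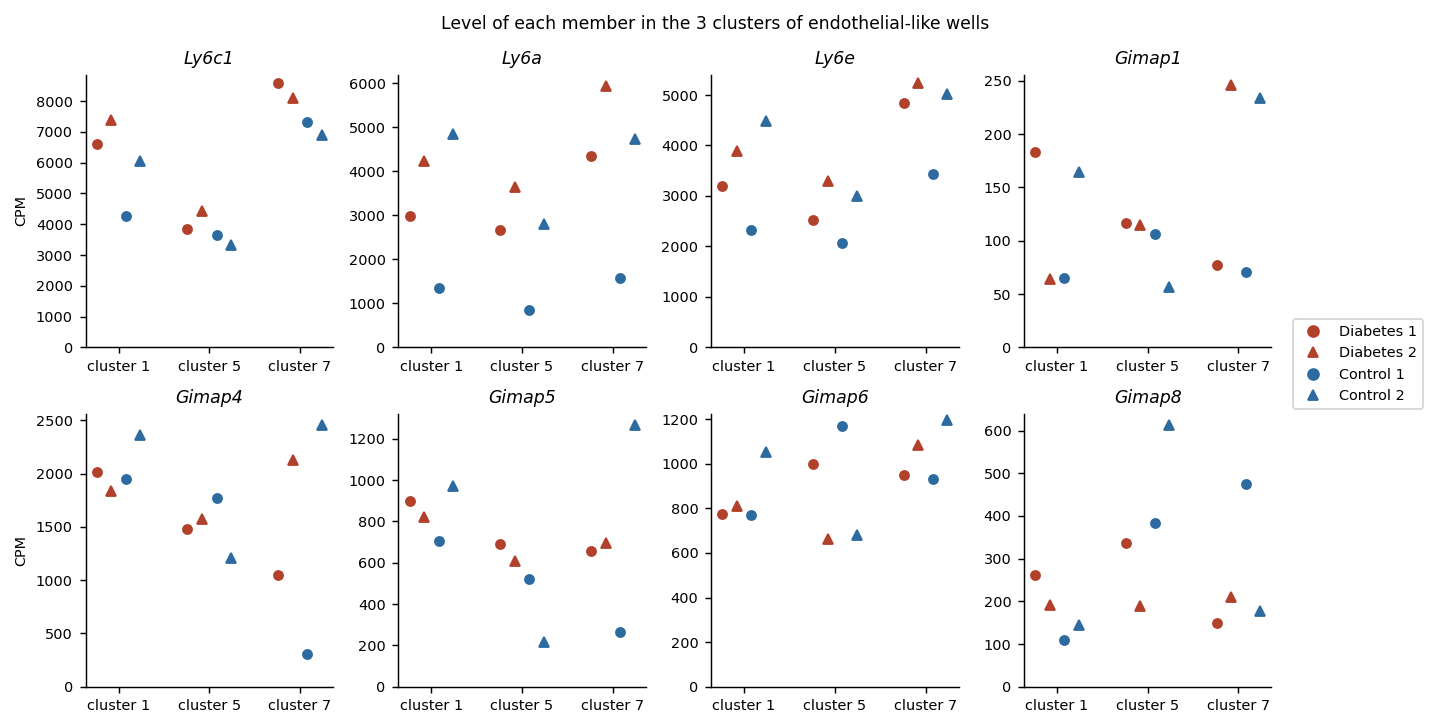
CPM of each member in the 3 clusters of endothelial-like wells, with red for Diabetes, blue for Control, circles for experiment 1 and triangles for experiment 2. Ly6c1 and Ly6e are higher in cluster 7 than in cluster 5 in all 4 pools, and Ly6a in Control 1 is the lowest symbol of each cluster.

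Across single endothelial-like wells the Ly6 pairs had rank correlations of 0.30 to 0.61 in Diabetes 1, Diabetes 2 and Control 2, but of −0.02 to 0.23 in Control 1, where Gimap pairs reached 0.37. The rank correlation within a pool, averaged over the 4 pools, was 0.44 between Ly6c1 and Ly6a, 0.31 between Ly6c1 and Ly6e and 0.32 between Ly6a and Ly6e. The 10 pairs of Gimap genes had between 0.01 and 0.28, with a median of 0.11 and the highest value for Gimap4 and Gimap6. The 15 pairs that join the families had between −0.01 and 0.24, with a median of 0.10. Wells share a library preparation and differ in depth, and low counts pull such correlations toward 0, so they are given as a description without a p.

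**Figure D4:**
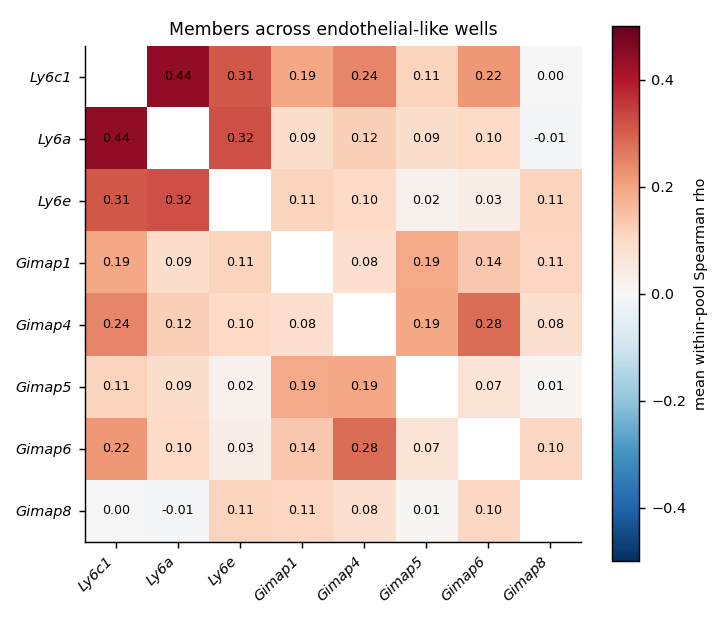
Mean over the 4 pools of the within-pool Spearman rho between members across the 300 endothelial-like wells, on a colour scale of −0.5 to 0.5. The 3 pairs of Ly6 genes lie between 0.31 and 0.44, and the pairs of Gimap genes reach 0.28 at most, while in Control 1 the Ly6 pairs lay between −0.02 and 0.23.

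The genes whose level most resembled that of the members over 24 sums of a class in a pool were ranked by Pearson r of log2(CPM + 10). The 3839 genes ranked averaged at least 50 CPM in endothelial-like wells, which favoured endothelial genes in advance. Emcn, Pecam1, Egfl7 and Kdr were also among the markers used to name the classes. Closest to Ly6c1 were Adgrf5 (0.95) and Adgrl4 (0.94), both adhesion receptors of endothelium, followed by Gimap6 (0.94), Plpp1 and Cd300lg. Closest to Ly6a were Emcn (0.93), which encodes endomucin, Ly6e (0.90), Cd300lg, Adgrl4 and Pecam1, and closest to Ly6e were Ly6a, Egfl7 (0.88), Pecam1, Emcn and Gimap6. For the summed Gimap members they were Emcn (0.96), Plpp1, Adgrf5, Adgrl4 and Kdr. The points share pools and depth, and no p is given.

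Within endothelial-like wells, among 4990 genes, the nearest to Ly6c1 were Ly6c2 (mean rho 0.85), Ly6a (0.44), B2m (0.44), the light chain of class I antigen-presenting molecules, Prdx1 and Ifitm3. The nearest to Ly6a were its neighbours Ly6f (0.56) and Ly6i (0.49), then Ly6c1, Ifitm3 (0.43) and Ifitm2. For Ly6e they were Ifitm3 (0.36), Lgals3bp, Tm4sf1, Ly6a and Ly6c1, so Ifitm3, an interferon-induced membrane protein, stood among the 5 nearest genes of all 3 Ly6 members. For the summed Gimap members the nearest were Gm8797 (0.34), Gm1821, Ubb, Gm10020 and Gm4294.

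Some of these genes share sequence with the members. Of all 50-base stretches of the Ly6c1 transcripts 32.8% also occur in another gene, mostly Ly6c2, and of those of Ly6a 18.97%, mostly in Ly6c1. The share was 6.84% for Gimap5, mostly in Gimap3, 5.94% for Gimap1, mostly in Gm28053, 0.0565% for Gimap6 and 0.0% for Ly6e, Gimap4 and Gimap8. Values that were not whole numbers, whose origin was not given, made up 43.6% of the values above 0 of Ly6c1, 36.9% of those of Ly6a and 51.4% of those of Gimap1, though at most 0.972% of any member's reads lay in such fractions. Gimap1 also overlaps the antisense gene Gimap1os, and whether reads were counted by strand was not given.

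Among the other genes of the Ly6 and uPAR family, 33 of the 35 listed were in the tables, and 4 averaged at least 50 CPM in endothelial-like wells, namely Gpihbp1, Cd59a, Ly6c2 and Plaur, while 19 averaged under 1 CPM. Of the 11 tested 8 had a positive and 3 a negative fold change, with a median log2 of 0.28 beside 0.06 over all genes, and edgeR called 0. Gpihbp1, the protein that brings lipoprotein lipase to the capillary lumen, had 1802 and 5468 CPM in Diabetes 1 and 2 and 334 and 1487 CPM in Control 1 and 2, so within each experiment Diabetes lay above Control. Its log2 fold change of 2.17 (SE 0.26) had an edgeR adjusted p of 0.279, and it passed the threshold in 7 of the 18 alternatives. Within experiments 1 and 2 its log2 ratio was 2.43 and 1.88. Fits of 3 pools, which carry no experiment term, gave 0.83 without Diabetes 2, 1.24 without Control 1 and 3.61 without Control 2. Those fits set pools of different experiments against each other, and Gpihbp1 was higher in experiment 2 in both conditions. The next smallest p belonged to Bambi, a decoy receptor of the TGF-beta family (2.55, SE 1.39), and Lypd6 (−1.01, SE 0.90).

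Lpl, the lipase itself, stood on the list of 12 glomerular capillary genes. It had 989 and 1017 CPM in Diabetes 1 and 2 and 137 and 336 CPM in Control 1 and 2, with a log2 fold change of 2.23 (SE 0.38, edgeR adjusted p = 0.986), and it passed in 5 of the 18 alternatives. Leaving out 1 pool, in fits without an experiment term, put it between 1.47, without Control 1, and 2.99, without Control 2. Both Diabetes pools lay above both Control pools. Plat, tissue plasminogen activator, had 4025 and 3312 CPM in Diabetes 1 and 2 and 2127 and 1593 CPM in Control 1 and 2 (log2 fold change 1.00, SE 0.22), likewise without overlap, and Tspan7 had −0.41 (SE 0.27). Over this list 6 were positive and 6 negative, with a median of 0.01 and 0 called.

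Of the other Gimap genes 3 of 4 could be tested, 2 positive and 1 negative, with a median of 0.37 and 0 called. Gimap3, which shares sequence with Gimap5, had 33.1 and 49.6 CPM in Diabetes 1 and 2 and 0.0 and 33.5 CPM in Control 1 and 2. Gimap9 had 59.2 and 104 CPM in Diabetes 1 and 2 and 31.4 and 118 CPM in Control 1 and 2, which overlap, and the antisense gene Gimap1os had a log2 fold change of −0.99 (SE 1.01).

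The interferon-stimulated genes were examined because Ly6a and Ly6e respond to interferon. Of 32 tested, 23 had a positive and 9 a negative fold change, with a median log2 of 0.39 beside 0.06 over all genes, and edgeR called 0. The experiments gave different values, and 28 of 32 ratios were positive in experiment 1, with a median of 1.51, and 10 in experiment 2, with a median of −0.25. Gbp4, an interferon-induced GTPase, had 207 and 172 CPM in Diabetes 1 and 2 and 78.4 and 87.2 CPM in Control 1 and 2 (log2 fold change 1.199, SE 0.41). Cxcl10, a chemokine, had 4.86 and 24.02 CPM in Diabetes 1 and 2 and 0.0 and 1.21 CPM in Control 1 and 2. For both genes both Diabetes pools lay above both Control pools. The immune markers given above were also higher in Diabetes in both experiments, and their part in the interferon values was not tested.

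Lists for other vessel segments had wide errors for single genes. Within experiments 1 and 2 the median log2 ratio was −0.50 and 0.10 for the arterial genes and 0.49 and 0.75 for the peritubular or venous genes. For the endothelial markers it was 0.10 and −0.28. Of 12 arterial genes 9 were positive and 3 negative, with a median log2 of 0.12, and the smallest p belonged to Cxcl12 (3.52, SE 1.61), Sox17 (−0.83, SE 0.38) and Efnb2 (−0.46, SE 0.30). Of 7 peritubular or venous genes 5 were positive and 2 negative, with a median of 0.39, led by Selp (3.07, SE 1.23), Igfbp7 (0.69, SE 0.30) and Vwf (4.41, SE 2.23). Selp, the adhesion molecule P-selectin, had 39.1 and 25.7 CPM in Diabetes 1 and 2 and 5.24 and 2.77 CPM in Control 1 and 2. The 14 endothelial markers were 6 positive and 8 negative, with a median of −0.10, and edgeR called 0 in each of these lists.

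**Figure D5:**
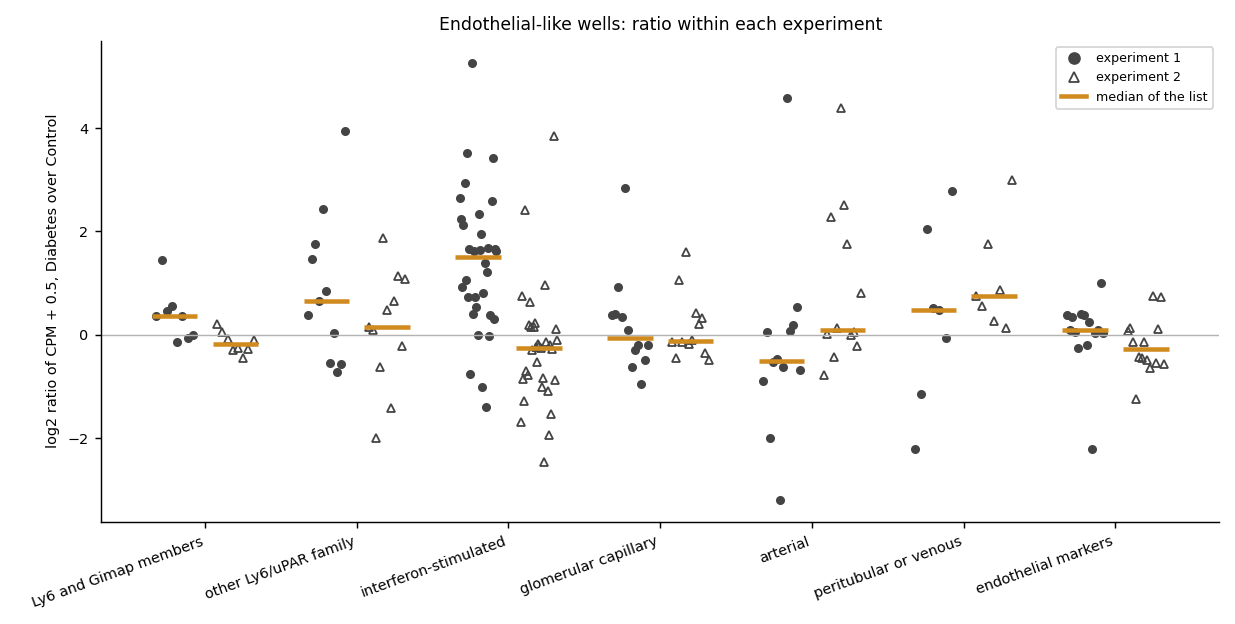
Each symbol is the log2 ratio of CPM + 0.5, Diabetes over Control, of 1 gene in endothelial-like wells, filled circles for experiment 1 and open triangles for experiment 2, with the median of each list as a bar. The median of the 8 members is 0.36 in experiment 1 and −0.18 in experiment 2, and that of the interferon-stimulated genes 1.51 and −0.25.

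In mesangial-like wells, of which every pool held at least 5, edgeR called 0 of 8 members, against 0.13% of 10006 genes. DESeq2 also called 0 members, against 17 of 7557 genes. Ly6c1 had 69.0 and 169 CPM in Diabetes 1 and 2 and 824 and 193 CPM in Control 1 and 2. Its log2 fold change was −1.85 (SE 0.77, unadjusted p = 0.0168, adjusted p = 1.00, edgeR). It was the only member with an unadjusted p under 0.05, beside 300 of the 10006 genes. The Ly6c1 ratio was −3.57 in experiment 1 and −0.19 in experiment 2, and without Control 1 its fold change was −0.67. Ly6a had 233 and 564 CPM in Diabetes 1 and 2 and 154 and 192 CPM in Control 1 and 2 (1.07, SE 0.69), without overlap. Ly6e had −0.18 (SE 0.59), and the Gimap genes had between −2.5 for Gimap5 and −0.09 for Gimap8.

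Diabetes 1 held only 5 mesangial-like wells, against 28 in Control 1, and Diabetes 2 held 19, against 66 in Control 2, and the median fold change over all genes was −0.44 in this class. Endothelial markers stood at 2169 and 2310 CPM in the mesangial-like wells of Diabetes 1 and 2 and at 2721 and 3720 CPM in those of Control 1 and 2, and their part in these differences was not tested. In immune-like wells no test was made, since Control 1 held 4 of them.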

How the data were processed

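The authors deposited estimated counts of reads for every gene in every well, not scaled, made per the submitters' processing notes with featureCounts 1.5.1, STAR 2.4.2a, cutadapt 1.11 and the aligner BWA 0.7.17-r1188 on mm10, with no roles or settings named. Whole numbers made up 74.1% of the values above 0 in experiment 1 and 79.3% in experiment 2. The handling of strand and of reads that hit several genes is not stated in the labels or files. Gene names came from GENCODE M21 for 45143 of 45792 IDs, leaving 649 unnamed, and 0 columns lacked a sample.

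The 8 members and every gene list were chosen with earlier results of these data known. Wells imaged with 1 cell, with at least 500 genes and at most 30% mitochondrial reads, were clustered with scanpy 1.11.5 (2000 variable genes, 15 components, 15 neighbours, resolution 0.8) without Ly6 and Gimap genes, and each cluster took the marker list with the most members among its 50 leading genes. It was left unnamed where lists tied, where fewer than 3 of that list's markers had reads in at least 25% of its wells, or where none of them stood among its 10 leading genes. Cell type names are thus rebuilt here, and doublets were limited to what imaging shows, since no caller was run. None of the 1600 wells had the same values as another (0 pairs).

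Counts were summed per class and pool and rounded. CPM is a pool's reads of a gene per 1000000 of its summed reads. Diabetes was tested against Control with edgeR 4.0.16 in R 4.3.3 (TMM scaling, filterByExpr, robust quasi-likelihood fit, experiment as a block, Benjamini-Hochberg adjustment over all genes, threshold 0.05) in endothelial-like and mesangial-like wells, where every pool held at least 5 (the planned immune-like test lacked them), and DESeq2 1.42.0 was an alternative. The pairing by experiment comes from the labels, which give both conditions in each numbered experiment, and over 12502 genes the deviations of same-numbered endothelial-like pools from their condition's mean correlated at 0.13. Ratios within an experiment use CPM + 0.5. An exact permutation of 2 pools against 2 cannot give a p under 0.333, and none was used. The test was run on simulated counts without an experiment effect, with changes larger than any fitted for a member in endothelial-like wells. That run therefore does not show what the test could find at the size of the members' differences. Intervals are exact binomial at 95% on the wells of 1 pool. They cover the sampling of wells only, because wells of a pool are not replicates. The 2 pools of a condition hold different mice, per the labels' design text on pooling.

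Named were all members, the 5 nearest genes by each measure of likeness, and per list the genes past the threshold and the 3 of smallest p, of which 1 interferon-stimulated gene is not reported here. Other genes named (Cd59a, Ly6c2, Plaur, Nos3, Xist and cluster leaders) were named after their values were seen. The spike-in table of experiment 1 was not used. Fits for the mesangial-like count of genes, for Ly6c1 there and for the listed genes under each alternative were added after seeing the data.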

Additional observations from a re-analysis of the deposited data

Results flagged for a closer look

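Wells left out of the comparisons also carried the members. The sets summed below were picked because Diabetes lay above Control in both experiments. Wells with over 2 cells or debris did not meet that rule. There all 8 members stood at 90.4% and 36.9% of the endothelial-like level in Diabetes 1 and 2. In Control 1 and 2 they stood at 38.9% and 41.4%, and Diabetes 1 and Control 1 held only 5 and 4 such wells. In wells imaged with 2 cells all 8 members summed to 9986 and 18796 CPM in Diabetes 1 and 2, against 5985 and 9966 CPM in Control 1 and 2, above Control in both experiments. Endothelial markers there stood at 11482 and 12560 CPM in Diabetes 1 and 2 and at 7629 and 10608 CPM in Control 1 and 2. Set against those marker reads, the sum was 1.36 and 1.42 times its value in endothelial-like wells in Diabetes 1 and 2. In Control 1 and 2 it was 1.41 and 1.09 times. Wells imaged with 1 cell that failed the filters had 2072 and 2800 CPM in Diabetes 1 and 2, against 1447 and 2110 CPM in Control 1 and 2. In these failed wells Ly6a alone had 1218 and 748 CPM in Diabetes 1 and 2 and 840 and 946 CPM in Control 1 and 2. Set against the endothelial marker reads of the same wells, that was 8.08 and 1.42 times its value in endothelial-like wells in Diabetes 1 and 2 and 10.5 and 6.69 times in Control 1 and 2. For Ly6c1 the same ratio was 1.62 and 1.13 in Diabetes 1 and 2 and 0.595 and 2.77 in Control 1 and 2.

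Ly6c1 had a log2 fold change of 0.30 in endothelial-like wells and of −1.85 in mesangial-like wells, with opposite signs in both experiments, and the difference between the classes was not tested. In mesangial-like wells 57.1% of the Ly6c1 reads of Control 1 came from 1 well, and with the highest well of each pool left out the value there was −1.06.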

How the results depend on the processing

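The count of members called remained 0 in all 18 alternatives of the endothelial-like fit and all 15 of the mesangial-like fit. Genes called in endothelial-like wells (0) became 1 with RLE scaling, 89 with DESeq2, 9 with no filter on low counts, 5 with wells thinned to 10000 reads, 4 with at most 15% mitochondrial reads, 1 with Ly6 and Gimap genes used in clustering, 1 at clustering resolution 1.2, 1 with classes by marker score, 4 with the whole part of each value and 7 with the highest well of each pool left out. Leaving out 1 pool gave 9 to 255 calls, the most without Control 2. With no replicate block, that is without pairing pools by experiment, it stayed at 0, and Ly6a had a log2 fold change of 0.43, Ly6c1 0.28 and Gimap4 −0.20. In mesangial-like wells the count (13) became 1 with no replicate block, 5 with at most 15% mitochondrial reads, 3 with no filter on wells, 5 with the empty-well profile subtracted, 7 with the highest well left out and 1 to 53 on leaving out 1 pool. The cause was not tested.

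Of 144 alternative fold changes of members 124 kept their sign and 20 did not. Gimap5 (−0.04) became 0.39 in thinned wells, 0.065 by marker score and 0.12 without the highest wells, and Gimap8 (−0.04) became 0.047 in thinned wells, 0.091 by marker score and 0.011 with the empty-well profile subtracted. On leaving out 1 pool the log2 fold changes ran between −0.038 and 0.67 for Ly6c1, −0.30 and 1.92 for Ly6a, −0.36 and 0.81 for Ly6e, −0.49 and 0.79 for Gimap1, −0.50 and 0.15 for Gimap4, −0.55 and 0.47 for Gimap5, −0.34 and 0.0094 for Gimap6 and −0.20 and 0.10 for Gimap8. They ran between −2.56 and 0.34 for Lypd6, −0.59 and 1.53 for Gimap9 and −1.28 and 0.35 for Efnb2. Of 128 alternative levels in endothelial-like wells 118 moved by less than the spread between pools, and of 344 in other classes 270. The mesangial-like fit was not run with Ly6 and Gimap genes in clustering, by marker score or thinned, where a pool had under 5 wells. Immune-like wells could be fitted only at resolution 1.2, with 4 of 8495 genes called. At 10000 reads per well Gimap1 was seen in 21.95% to 35% of endothelial-like wells.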
